A study of Mus musculus with 8 samples.

Results

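The regions described are the stretches of the mouse genome where the chromatin regulator ASXL1 and the repressive mark H3K27me3 lay together in wild-type bone marrow MSPCs, the mesenchymal stem and progenitor cells of the marrow stroma. They were selected by position: an autosomal ASXL1 island narrower than 20000 bp was taken when it shared at least 1 bp with a wild-type H3K27me3 island. An island is a run of enriched windows, 200 bp each, and a wild-type H3K27me3 island is called a domain below. The rule took 1529 of the 16617 autosomal ASXL1 islands under that width, which is 9.20% (95% exact interval 8.77 to 9.65), out of 17065 autosomal islands and 17419 islands in all. The 1529 islands touched 1460 of the 17507 autosomal H3K27me3 domains, or 8.34% (7.93 to 8.76).

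Chromatin immunoprecipitation and sequencing covered ASXL1 in wild-type cells only, and 3 histone marks (H3K27me3, H3K4me3, H3K4me2) in both wild-type and Asxl1-/- cells, all C57BL/6 MSPCs in culture at passages 5 to 10. Each of the 7 island lists came from 1 library, so no test between genotypes was possible, and every difference below describes these libraries. Intervals are exact Clopper-Pearson intervals and cover counting error only; no read counts were used, so the depth behind an island is unknown. How Asxl1 was deleted is not given in the sources used here, no ASXL1 library of Asxl1-/- cells was analysed, and an island missing from a list may be signal just under the caller's limit. As a check of the labelled cell type, 15 of 15 stromal marker genes had H3K4me3 within 1000 bp of the gene in wild type, against 1 of 5 endothelial ones (Kdr, which also carried H3K27me3).

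ASXL1 is a scaffold protein of the Polycomb repressive deubiquitinase complex, in which it activates the enzyme BAP1 to remove ubiquitin from histone H2A, and it has been linked to the methyltransferase complex PRC2. PRC2 writes H3K27me3 over silent genes, often CpG-rich promoters of developmental regulators, whereas H3K4me3 marks the starts of active or poised genes and H3K4me2 promoters and enhancers. A promoter that carries both H3K4me3 and H3K27me3 is called bivalent, and bivalent promoters are common among lineage regulators in stem and progenitor cells.

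The promoter sequences under the selected islands were rich in the dinucleotide CG. For 6 genes, chosen to show ASXL1 inside a domain (Lhx1, Klf15, Alcam) and across the end of a domain (Gata2, Cxcl12, Cdkn1a), the RefSeq promoter of GRCm38.p6 is printed 5′ to 3′ on the strand of the gene, from 250 bases before the start to 50 after it, with every CG in capitals.
Lhx1: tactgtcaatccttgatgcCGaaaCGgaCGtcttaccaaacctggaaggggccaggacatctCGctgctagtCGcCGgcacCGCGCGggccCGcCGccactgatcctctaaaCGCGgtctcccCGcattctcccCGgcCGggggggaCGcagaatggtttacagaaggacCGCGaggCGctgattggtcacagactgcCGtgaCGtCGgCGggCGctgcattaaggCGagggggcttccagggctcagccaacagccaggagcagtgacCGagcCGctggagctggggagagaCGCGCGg
Klf15: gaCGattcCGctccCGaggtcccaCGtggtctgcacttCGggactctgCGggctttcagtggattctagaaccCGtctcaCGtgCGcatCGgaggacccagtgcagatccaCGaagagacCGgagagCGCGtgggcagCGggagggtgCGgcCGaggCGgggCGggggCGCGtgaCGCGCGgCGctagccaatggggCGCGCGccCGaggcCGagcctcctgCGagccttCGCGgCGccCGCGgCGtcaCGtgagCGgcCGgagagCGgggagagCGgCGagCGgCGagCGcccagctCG
Alcam: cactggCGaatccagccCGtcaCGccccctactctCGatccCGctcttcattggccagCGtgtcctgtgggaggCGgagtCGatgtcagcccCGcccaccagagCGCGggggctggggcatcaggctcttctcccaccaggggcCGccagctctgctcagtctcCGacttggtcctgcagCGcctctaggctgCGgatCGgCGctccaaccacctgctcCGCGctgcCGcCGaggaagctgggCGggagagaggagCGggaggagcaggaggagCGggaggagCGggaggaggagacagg
Gata2: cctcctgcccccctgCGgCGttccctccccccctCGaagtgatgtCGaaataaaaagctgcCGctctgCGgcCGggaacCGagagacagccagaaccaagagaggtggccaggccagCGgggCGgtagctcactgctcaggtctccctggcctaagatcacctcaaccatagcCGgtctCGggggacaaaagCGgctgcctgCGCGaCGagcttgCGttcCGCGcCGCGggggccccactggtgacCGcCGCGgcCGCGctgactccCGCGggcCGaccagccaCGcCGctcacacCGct
Cxcl12: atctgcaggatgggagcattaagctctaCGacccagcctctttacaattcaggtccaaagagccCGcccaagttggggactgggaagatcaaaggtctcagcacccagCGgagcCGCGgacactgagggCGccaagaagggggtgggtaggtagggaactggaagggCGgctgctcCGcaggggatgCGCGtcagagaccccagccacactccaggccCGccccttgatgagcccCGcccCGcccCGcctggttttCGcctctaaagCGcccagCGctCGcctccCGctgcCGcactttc
Cdkn1a: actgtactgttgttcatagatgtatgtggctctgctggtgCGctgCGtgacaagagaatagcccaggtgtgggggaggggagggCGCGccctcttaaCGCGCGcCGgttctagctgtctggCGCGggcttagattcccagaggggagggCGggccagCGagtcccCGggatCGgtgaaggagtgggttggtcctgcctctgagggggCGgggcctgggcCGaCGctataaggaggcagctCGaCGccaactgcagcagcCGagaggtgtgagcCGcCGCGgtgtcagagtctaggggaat
The windows are chr11:84525485-84525784 on the minus strand for Lhx1, chr6:90462326-90462625 on the plus strand for Klf15, chr16:52453032-52453331 on the minus strand for Alcam, chr6:88193641-88193940 on the plus strand for Gata2, chr6:117168285-117168584 on the plus strand for Cxcl12 and chr17:29093519-29093818 on the plus strand for Cdkn1a. They hold 31, 47, 25, 32, 20 and 23 CG in this order. H3K27me3 was kept whole in Asxl1-/- at the islands of Lhx1, Klf15 and Gata2 and none of it was left at those of Alcam, Cxcl12 and Cdkn1a. The 3 promoters of islands that kept H3K27me3 thus had more CG than the 3 of emptied islands, an order that the medians over all promoters in the selected islands, given next, do not show.

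Over the 1065 listed promoters inside the selected islands the median was 23 CG per 300 bases (quartiles 16 and 31), against 14 (4 and 25) over all 20084 listed autosomal protein-coding promoters and 22 over the 8586 promoters inside ASXL1 islands without H3K27me3. CG content set these promoters apart from promoters at large and not from other ASXL1 promoters. The median was 25 where the island lay inside a domain and 22 where it crossed an end of one. By what was left of H3K27me3 in Asxl1-/- it was 23 with none left, 22 with part and 22 with all. The motif GAGAG, searched on both strands, was in 65.6% of promoters in the selected islands and in 62.2% of all promoters, and TATAAA, searched likewise, was in 6.67% and 12.7%. In ASXL1 islands without H3K27me3 the shares were 61.1% for GAGAG and 6.01% for TATAAA. In H3K4me3 islands with H3K27me3 and no ASXL1 they were 65.4% and 6.73%. The low TATAAA share was thus not particular to the selected islands. GAGAG was in 61.2% of the promoters at islands with no H3K27me3 left and in 71.4% of those at islands that kept all of it.

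The selected islands were 400 to 19600 bp wide (median 4400), and they shared a median of 2800 bp, or 80.6% of their length, with H3K27me3. At the limits of the rule, 40 islands shared a single 200 bp window with a domain and 72 shared 400 bp or less. Another 33 ASXL1 islands abutted a domain without sharing a base, 101 lay within 400 bp and 563 within 2000 bp. Of the 448 autosomal islands of 20000 bp or more, 45 overlapped H3K27me3 and were left out.

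Over all widths, more of the ASXL1 islands crossed 1 end of an H3K27me3 domain than lay inside a domain, but the order turned with island width. The class is a matter of geometry: 773 islands (50.6%, 48.0 to 53.1) crossed 1 end of 1 domain, 640 (41.9%, 39.4 to 44.4) lay inside 1 domain, 72 (4.71%) contained a whole domain and 44 (2.88%) bridged several. H3K4me3 islands that overlapped H3K27me3 and touched no ASXL1 were placed otherwise: of 2106, 88.2% lay inside a domain and 11.1% crossed 1 end. These were narrower, with a median of 1800 bp, and a wide island crosses an end more easily. Under 2 kb 79.2% of the selected islands lay inside a domain, at 2 to 4 kb 57.6%, at 4 to 8 kb 33.8% and at 8 to 20 kb 11.7%, so the interior was the larger class below 4 kb. Against H3K4me3 islands of like width, more ASXL1 islands crossed an end: 20.8% of ASXL1 islands under 2 kb crossed 1 end against 7.66% of H3K4me3 islands without ASXL1, 40.0% against 12.7% at 2 to 4 kb, and 58.3% against 36.1% at 4 to 8 kb. At 8 to 20 kb 68.3% of ASXL1 islands did, and no H3K4me3 island without ASXL1 was that wide.

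**Figure D1:**
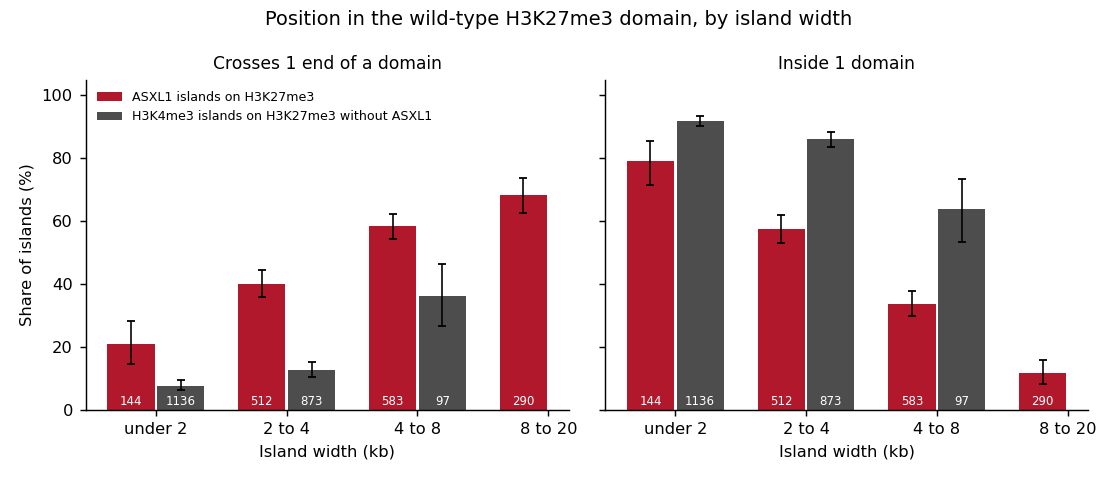
Share of islands (%, vertical axis) that cross 1 end of a wild-type H3K27me3 domain (left) or lie inside 1 domain (right), by island width in kb (horizontal axis), for the ASXL1 islands on H3K27me3 (red) and H3K4me3 islands on H3K27me3 without ASXL1 (grey). Bars start at 0, lines are 95% exact intervals and white figures are numbers of islands; in the 3 width classes that hold both kinds the red bar is the higher one on the left, 40.0% against 12.7% at 2 to 4 kb.

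Islands inside a domain had their nearer end a median of 2200 bp (0 to 47200) from the edge, with 48.6% (44.7 to 52.5) within 2000 bp and 66 of the 640 ending exactly at it. For H3K4me3 islands without ASXL1 that lay inside a domain the share within 2000 bp was 35.5% (33.3 to 37.7). Measured from the island's centre, which leaves its width out, 43.8% (40.8 to 46.9) of the 1040 selected islands centred in a domain lay within 2000 bp of an edge, while 31.7% of all domain length and 26.6% (24.7 to 28.6) of the centres of H3K4me3 islands without ASXL1 did. In domains of 5 to 10 kb the centres of ASXL1 islands were as near to the edge as domain length gives, at 54.8% (49.1 to 60.5) against 55.6%. In domains of 20 to 40 kb they were nearer, at 23.4% (17.6 to 30.1) against 14.7%, and above 40 kb at 21.0% (14.2 to 29.2) against 6.21%. H3K4me3 islands without ASXL1 were at 8.05% and 6.52% in those last classes. These centres include islands that cross an edge. For islands wholly inside a domain the share whose nearer end lay within 2000 bp of the edge was 18.3% (12.3 to 25.7) in domains of 20 to 40 kb and 10.9% (5.56 to 18.7) above 40 kb, and both intervals cover the share of domain length. Their centres lay within 0.25 of the domain's width from an end in 36.6% (28.7 to 45.1) and 48.5% (38.4 to 58.7) of cases, against 39.0% (34.2 to 44.0) and 47.4% (41.3 to 53.6) for H3K4me3 islands without ASXL1. For the nearer end of interior islands in domains above 40 kb, the result depended on the limit. Within 1000 bp of the edge lay 7.92% (3.48 to 15.0), against 3.11% of domain length. Within 4000 bp lay 19.8% (12.5 to 28.9), against 12.4%, and both these intervals lay above the share of domain length. The nearness to the edge in wide domains was thus clearer with the crossing islands included, and among interior islands alone it depended on the limit.

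Genes at the boundary pointed away from H3K27me3. Of the 20661 autosomal protein-coding genes, 1157 (percent called 5.6) had their listed start, or either end where no start is listed, inside a selected island. A gene start or end lay in 69.1% (66.7 to 71.4) of the selected islands and in 50.8% (49.99 to 51.6) of ASXL1 islands without H3K27me3. Among islands that crossed 1 end of a domain, 424 held the listed start of exactly 1 gene, and 359 of those genes (84.7%, 80.9 to 88.0) were transcribed out of the domain and 65 into it. The share was 82.4% at left ends and 86.6% at right ends, and it was over 50% on 16 of the 18 chromosomes with a listed start, from 40% to 100% on chromosomes with 5 to 69 such islands. At H3K4me3 islands without ASXL1 in the same position 54 of 87 genes (62.1%, 51.0 to 72.3) were transcribed out of the domain. The start itself lay inside the domain at 266 of the 424 islands (62.7%, 57.9 to 67.4) and within 2000 bp of the edge at 320 (75.5%), and of the 359 genes transcribed out of the domain 222 (61.8%, 56.6 to 66.9) had their start inside it. Direction used strand, which played no part in the selection.

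In Asxl1-/- cells the H3K27me3 shared with ASXL1 was gone from 695 of the 1529 islands (45.5%, 42.9 to 48.0), present in part at 314 (20.5%) and present over the whole stretch at 520 (34.0%). As background, 36.8% of all autosomal wild-type H3K27me3 windows and 36% of all domains were without H3K27me3 in Asxl1-/-. These count single windows and whole domains, and the islands were counted by shared stretches with a median of 2800 bp. The shares are therefore not like for like. The outcome went with position. None was left at 30.6% (27.1 to 34.4) of islands inside a domain, at 55.4% (51.8 to 58.9) of those across 1 end, at 36.4% (22.4 to 52.2) of those that bridged domains and at 76.4% (64.9 to 85.6) of those that contained a domain. H3K4me3 islands without ASXL1 had none left in 19.8% (18.02 to 21.7) of cases inside a domain and in 52.4% (45.7 to 58.9) across 1 end. Inside domains the interval of ASXL1 islands lay above that of H3K4me3 islands, and at the ends the intervals overlapped.

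Fewer windows were kept near the ends of domains and in narrow domains, so windows were compared at equal distance from the edge and equal domain width. Of the H3K27me3 windows in the selected islands, 51.7% were also covered in Asxl1-/-, against 63.6% outside ASXL1 islands. In 22 of 23 classes of distance and width the share was lower in the selected islands, and with classes weighted as in those islands the outside share was 59.5%, a difference of -7.88 percentage points. Against windows of the same domains outside ASXL1 the share was lower in 21 of 23 classes, by -4.93 points, and against windows with H3K4me3 and no ASXL1 in 20 of 23, by -14.9 points. Counted domain by domain there was no such order: of 1376 domains with windows of both kinds, 366 kept a smaller share inside the selected islands, 381 a larger one and 629 an equal one.

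**Figure D2:**
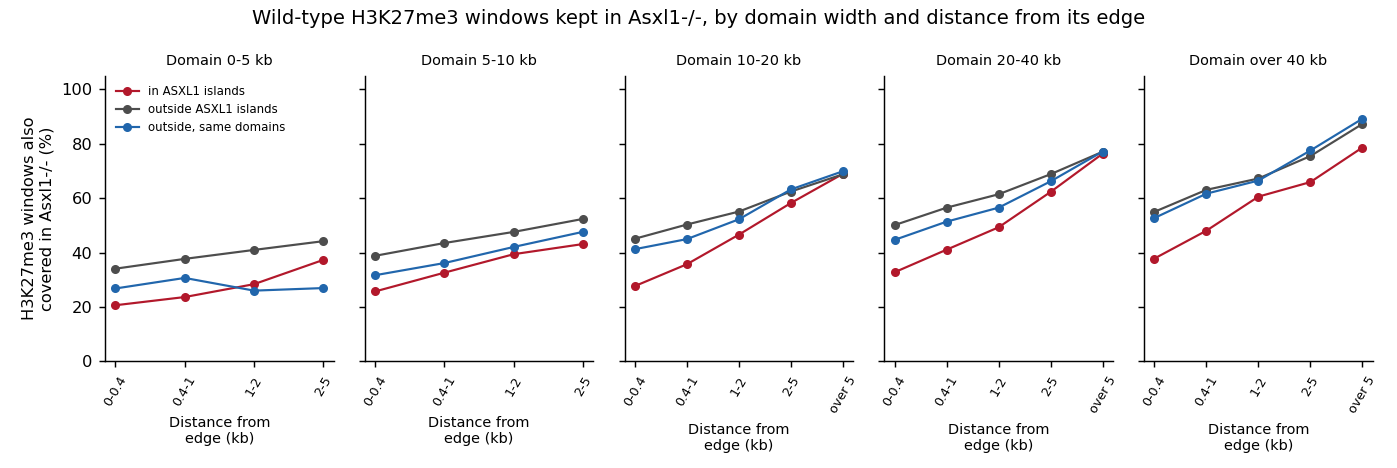
Share of wild-type H3K27me3 windows that Asxl1-/- also covered (%, vertical axis) by distance from the domain edge in kb (horizontal axis), with 1 panel per class of domain width, for windows in the selected ASXL1 islands (red), outside ASXL1 islands (grey) and outside ASXL1 islands in the same domains (blue). Windows of 1 island are not independent and have no error bars; red lies below grey in 22 of the 23 classes, and the red and grey lines climb with distance from the edge in every panel.

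The difference depended on which genotype defined the domains. The domains above are those of wild type, and the comparison was also made from the domains of Asxl1-/-. Of H3K27me3 windows of Asxl1-/- that lay in ASXL1 islands under 20000 bp, wild type covered 60.7%, against 62.1% outside ASXL1 islands, a gap of -1.42 points where the wild-type view gave -11.9. In covered length, ASXL1 islands under 20000 bp held 4969 kb of wild-type and 4231 kb of Asxl1-/- H3K27me3, a ratio of 0.851, while the autosomes as a whole stood at 1.02. ASXL1 islands with H3K4me3 had a ratio of 0.774 and those without H3K4me3 1.24. H3K4me3 islands that touched no ASXL1 had 0.835, above the 0.774 of ASXL1 islands with H3K4me3 and under the value of the autosomes as a whole. The number of ASXL1 islands with H3K27me3 was 1529 in wild type and 1294 in Asxl1-/-, of which 454 had it in Asxl1-/- alone.

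Chromosomes differed widely. The share of H3K27me3 windows kept in the selected islands ran from 21.5% on chromosome 16 to 76.3% on chromosome 11, and it was under that of windows outside ASXL1 on 17 of 19 chromosomes. The exceptions were chromosome 3, at 30.9% against 20.2%, and chromosome 13, at 47.7% against 39.5%, where Asxl1-/- had 0.222 and 0.491 of the wild-type H3K27me3 length. On 14 of 19 chromosomes the length ratio in ASXL1 islands was under that of the whole chromosome. What part these chromosome-wide differences have in the result was not tested, and genes on chromosomes 3, 13 and 16 are named with their chromosome below.

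Where the shared stretch was empty in Asxl1-/-, the domain around it was mostly empty too. For islands inside a domain this held for 157 of 196 (80.1%), with H3K27me3 left on 1 side of the island at 34 and on both sides at 5. For islands across 1 end it held for 275 of 428 (64.3%), and at 153 the rest of the domain still had some. Domains with a selected island were gone from Asxl1-/- in 34.5% (32.0 to 36.9) of cases and domains without ASXL1 in 36.1% (35.4 to 36.9). By width, domains under 5 kb with a selected island were gone more often, at 71.0% (64.3 to 77.0) against 57.5% (55.9 to 59.2), and those of 5 to 10 kb likewise, at 50.6% (46.0 to 55.2) against 42.5% (41.2 to 43.7). From 10 to 20 kb the shares were 21.1% (17.3 to 25.3) and 23.7% (22.5 to 24.99), with overlapping intervals.

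At domain ends crossed by a selected island, H3K27me3 of Asxl1-/- stopped short of the wild-type end more often than at ends with neither ASXL1 nor H3K4me3. Ends whose next domain lay at least 2000 bp away were used. Of 927 ends crossed by a selected island, H3K27me3 ended further in at 326 (35.2%, 32.1 to 38.3; median 1600 bp), further out at 179 (19.3%, 16.8 to 22.0; median 1200 bp), at the same place at 42 (4.53%) and was gone at 380 (41.0%). At the 24207 ends with neither ASXL1 within 2000 bp nor H3K4me3 across, it ended further in at 24.7% (24.2 to 25.3) and further out at 31.1% (30.5 to 31.7; median 2400 bp). At the 227 ends with H3K4me3 across and no ASXL1 it ended further in at 33.5% (27.4 to 40.0) and further out at 25.6% (20.0 to 31.7). Both intervals overlapped those of the ends crossed by a selected island. In domains under 5 kb, H3K27me3 ended further in at 8.54% of crossed ends and 9.81% of ends with neither. In each wider class the share was higher at crossed ends, with overlapping intervals at 5 to 10 kb and above 40 kb. At 10 to 20 kb it was 50.6% (44.3 to 56.9) against 34.4% (33.3 to 35.6).

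**Figure D3:**
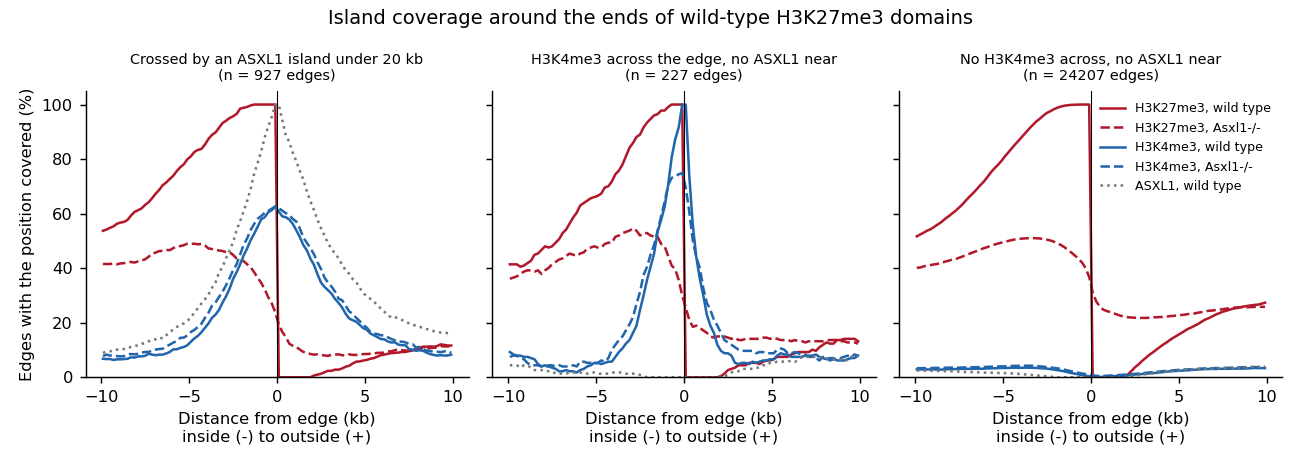
Share of domain ends with each list covering the position (%, vertical axis) by distance from the end in kb (horizontal axis, inside negative, outside positive), for 927 ends crossed by a selected ASXL1 island, 227 ends with H3K4me3 across and no ASXL1 within 2000 bp, and 24207 ends with neither; solid lines are wild type and dashed lines Asxl1-/-. H3K27me3 of Asxl1-/- covers 23.8% of the first window inside the ends in the left panel and 30.0% in the middle panel, and H3K4me3 of the 2 genotypes runs almost together on the left.

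In the first 200 bp inside the end, Asxl1-/- had H3K27me3 at 23.8% of ends crossed by a selected island and at 36.7% of the 24434 ends with no ASXL1 within 2000 bp. At 1000 bp outside the end it covered 11.5% of the ends crossed by a selected island and 18.1% of those with H3K4me3 across and no ASXL1. Taken from the Asxl1-/- ends, wild type covered the first window inside at 41.8% of 811 ends crossed by an ASXL1 island and at 40.2% of 25235 ends without, so ends defined in the other genotype did not show the gap. Of the windows of crossing islands that lay outside the domain, 7.99% had H3K27me3 in Asxl1-/-.

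H3K4me3 was present at most of these islands in both genotypes. It overlapped 1308 of the 1529 (85.5%, 83.7 to 87.3) in wild type and 1213 (79.3%, 77.2 to 81.3) in Asxl1-/-, and the length it covered in them was 4634 kb and 4668 kb, a ratio of 1.01. In wild type alone it was found at 109 of 1308 (8.33%, 6.89 to 9.96), against 13.8% of all autosomal ASXL1 islands under 20000 bp and 14.5% (13.8 to 15.1) of those without H3K27me3. In Asxl1-/- alone it was found at 14 of 221 (6.33%, 3.51 to 10.4), against 3.89% of all. The smaller loss held in each of the 4 width classes, from 5.26% against 11.9% under 2 kb to 8.33% against 18.5% at 8 to 20 kb. It turned around, to 10.7% against 9.65%, when an island counted as marked only with H3K4me3 over at least 50% of its length.

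H3K4me2 overlapped 1480 islands (96.8%) in wild type and 1397 (91.4%) in Asxl1-/-. It was missing from Asxl1-/- at 91 of 1480 (6.15%, 4.98 to 7.50), against 11.9% of all autosomal ASXL1 islands under 20000 bp, and present in Asxl1-/- alone at 8 of 49 (16.3%), against 18.2% of all. Its covered length ratio was 0.912 in the selected islands and 0.852 in ASXL1 islands without H3K27me3. In islands across 1 end, H3K4me3 covered 55.2% of the part inside the domain in wild type and 57.8% in Asxl1-/-, and 53.4% and 56.4% of the part outside. H3K4me2 went the other way, from 70.5% to 66.2% inside and from 77.3% to 69.7% outside.

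Islands with both H3K4me3 and H3K27me3 in wild type mostly had both in Asxl1-/- inside domains, and most often H3K4me3 alone at domain ends. In wild type each mark needed only to overlap the ASXL1 island. At domain ends the marks can thus lie side by side, and such an island need not be a bivalent promoter. In Asxl1-/-, H3K27me3 counted only within the stretch that the island and H3K27me3 shared in wild type. Of the 1308 islands with H3K4me3 and H3K27me3 in wild type, 642 (49.1%) had both marks in Asxl1-/-, 557 (42.6%) H3K4me3 alone, 73 (5.58%) H3K27me3 alone and 36 (2.75%) neither. Inside a domain, 61.5% (57.4 to 65.6) had both and 29.5% H3K4me3 alone. Across 1 end, 41.2% (37.5 to 45.1) had both and 51.9% (48.0 to 55.8) H3K4me3 alone, and of the 65 islands that contained a domain 46 (70.8%) had H3K4me3 alone. H3K4me3 was lost at 13.1% (10.2 to 16.6) of islands that kept all of their H3K27me3, at 5.26% (2.91 to 8.67) of those that kept part and at 6.07% (4.29 to 8.31) of those that kept none.

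Developmental transcription factors lay mostly inside wide domains, and most kept H3K27me3; where 2 lengths or levels are given, the first is wild type and the second Asxl1-/-. Of the 79 homeobox genes outside the Hox clusters 19 were in the selected islands, of the 39 Hox genes 9, of the 53 Pax, Tbx, Sox, Gata and Fox factors 11 and of the 47 basic helix-loop-helix factors 5, beside the 5.6% of all genes. Together these lists gave 44 of 218 genes, 35 of them inside a domain, in domains of 32.4 kb (median, against 11.0 kb for all 1157 genes). H3K27me3 was gone at 5 of the 44 (11.4%), against 518 of 1157 (44.8%) over all genes in the selected islands. At interior islands it was gone for 1 of 35 of these factors and for 144 of 447 of all genes. These comparisons were not matched for domain width. Of all domains of 20000 to 40000 bp with a selected island, 10.3% (6.65 to 15.1) were gone. That share counts whole domains, and the factors were counted by shared stretches, so the shares are not like for like. Whether the factors differ from other genes in domains of like width was not tested. The lists share clusters of neighbouring genes, so their genes are not independent. No start is listed for some genes named below, such as Pax3, Lbx1, Wnt5a, Wnt10a, Cdh11, Pcdh1 and Cdh2. Their islands hold a gene end that may not be the start.

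Gsc, which encodes the homeodomain factor goosecoid, lay in an ASXL1 island of 13.4 kb (chr12:104469001-104482400) inside a 16 kb domain, with 1 end of the island exactly at the domain edge. H3K27me3 covered all 13.4 kb in both genotypes. H3K4me3 covered 12.8 kb of it in wild type against 4.2 kb in Asxl1-/-; H3K4me2 covered 13.2 and 5.8 kb. Pax3, a regulator of muscle and neural crest, had 13.6 kb of H3K27me3 in both genotypes, 6 and 5.8 kb of H3K4me3 and 9 and 9.6 kb of H3K4me2. Klf15, a Krüppel-like factor of fat and muscle metabolism, lay 12 kb inside a 47.4 kb domain and kept all 13.6 kb, with H3K4me3 over 4.8 and 7.4 kb. Atf3, a stress-induced transcription factor, had the longest shared stretch of the islands inside a domain that hold a gene, 18 kb, and kept all of it, with H3K4me3 over 7.8 and 5.8 kb. These islands held H3K27me3 throughout, and their H3K4me3 differed in both directions.

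The homeobox genes also stood out by H3K4me3, which was missing from Asxl1-/- at 8 of the 19, Hmx2, Hmx3, Lbx1, Lhx1, Meox2, Nkx2-3, Nkx6-1 and Six2, against 38 of the 1138 marked genes (3.34%) in all selected islands. Nkx2-3, needed for spleen and gut vessels, had 2.4 kb of H3K4me3 in wild type and none in Asxl1-/-, under 9.6 kb of H3K27me3 in both and 6 and 6.2 kb of H3K4me2. Lhx1, a LIM homeobox gene, had 3.4 kb and none, with 5.8 kb of H3K27me3 and of H3K4me2 in both genotypes; a second ASXL1 island that began 10.3 kb downstream of the start had H3K4me3 in both. Meox2, a mesenchyme homeobox gene of muscle and limb, was in an island of 12 kb (chr12:37105601-37117600) across a pair of domains, where H3K4me3 covered 10.4 kb in wild type and H3K4me2 12 kb, and neither had an island in Asxl1-/-. H3K27me3 covered 5.8 and 4 kb there in the 2 genotypes, of which 3.4 kb were shared. At 7 of these 8 genes all of the shared H3K27me3 was kept, and Meox2 was the exception. Over all selected islands with H3K4me3 that kept all of their H3K27me3, 13.1% (10.2 to 16.6) lost H3K4me3. The lost wild-type stretches at the 8 genes ran from 1200 bp at Hmx2 to 10.4 kb at Meox2. H3K4me3 was found in Asxl1-/- alone at 3 islands with a named gene: Gucy2g, a receptor guanylyl cyclase, with 2.4 kb; Gng7, a G protein subunit, with 2.8 kb; and Hoxb9 with 2.8 kb. All 3 lay inside domains and kept H3K27me3 whole.

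**Figure D4:**
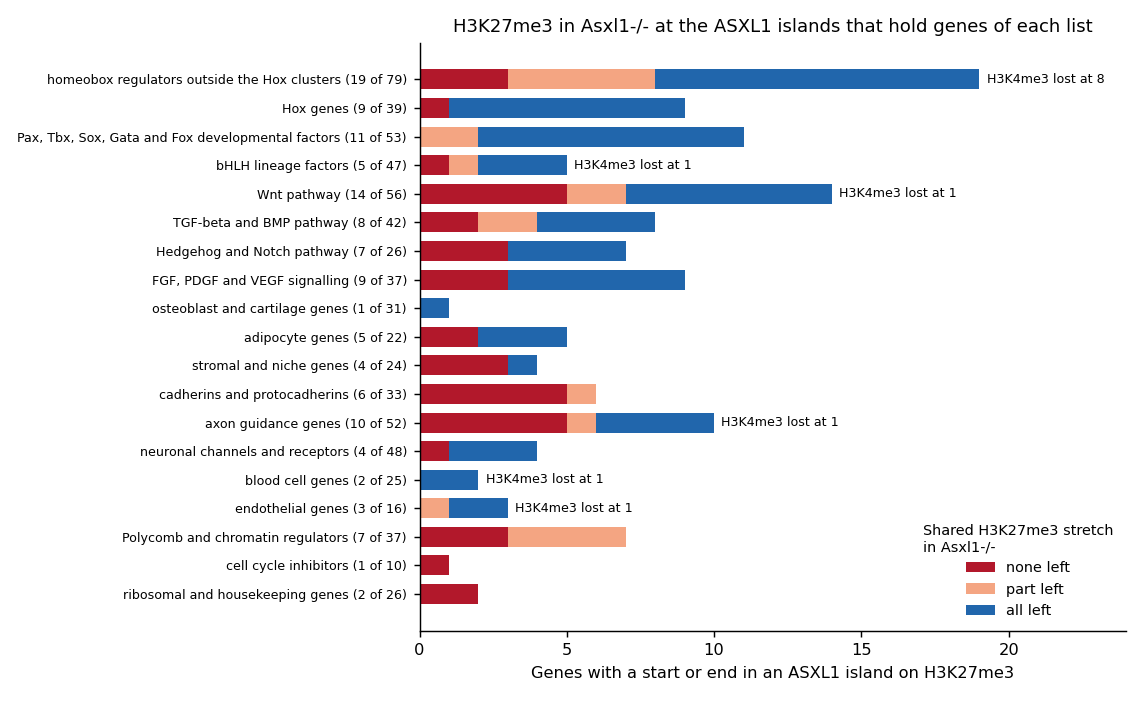
Number of genes (horizontal axis) with a start or end in a selected ASXL1 island, by gene list (rows, with genes found of genes listed), coloured by whether none (red), part (orange) or all (blue) of the H3K27me3 shared with the island was present in Asxl1-/-. Text gives how many genes lost H3K4me3; the homeobox row holds 19 genes with 3 in red and 8 losses of H3K4me3, and the cadherin row 6 genes with 5 in red.

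Signalling genes gave a mixed picture. Of the Wnt, TGF-beta and BMP, Hedgehog and Notch, and growth factor lists together 38 of 161 genes were in the selected islands, beside 5.6% of all genes, and H3K27me3 was gone at 13 of them (34.2%), under the 44.8% over all genes in the selected islands. Notch1, the receptor, held the longest emptied stretch of any selected island with a gene: an island of 18.8 kb (chr2:26492201-26511000) around a domain of 12.6 kb, none of it left in Asxl1-/-, with H3K4me3 over 12.2 and 14.8 kb and H3K4me2 over 18 and 17.2 kb. Notch3 had 3.2 kb of H3K27me3 in wild type and none in Asxl1-/-, with H3K4me3 over 2.6 and 3.2 kb. Among Wnt genes, the receptor Fzd1 had 6.4 kb and none, with H3K4me3 over 6.6 and 7 kb, and the ligand Wnt5a 9.4 kb of which 1.2 kb was left, with H3K4me3 over 8.4 and 9.2 kb. Fzd4 and Fzd6 (receptors) and Dkk2 and Sfrp2 (secreted antagonists, both on chromosome 3) were emptied too, while the ligands Wnt9a, Wnt10a and Wnt11 and the nuclear effector Lef1, on chromosome 3, kept all. In the BMP pathway the antagonist Grem1 had 6.8 kb, a whole domain, and none, while the ligand Bmp4 kept all of 7.4 kb with H3K4me3 over 7.4 and 4.8 kb. The ligand Bmp6 and the growth factor Fgf10, both on chromosome 13, and Spry1, an inhibitor of growth factor signals on chromosome 3, lost 4.2, 3 and 3.8 kb.

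**Figure D5:**
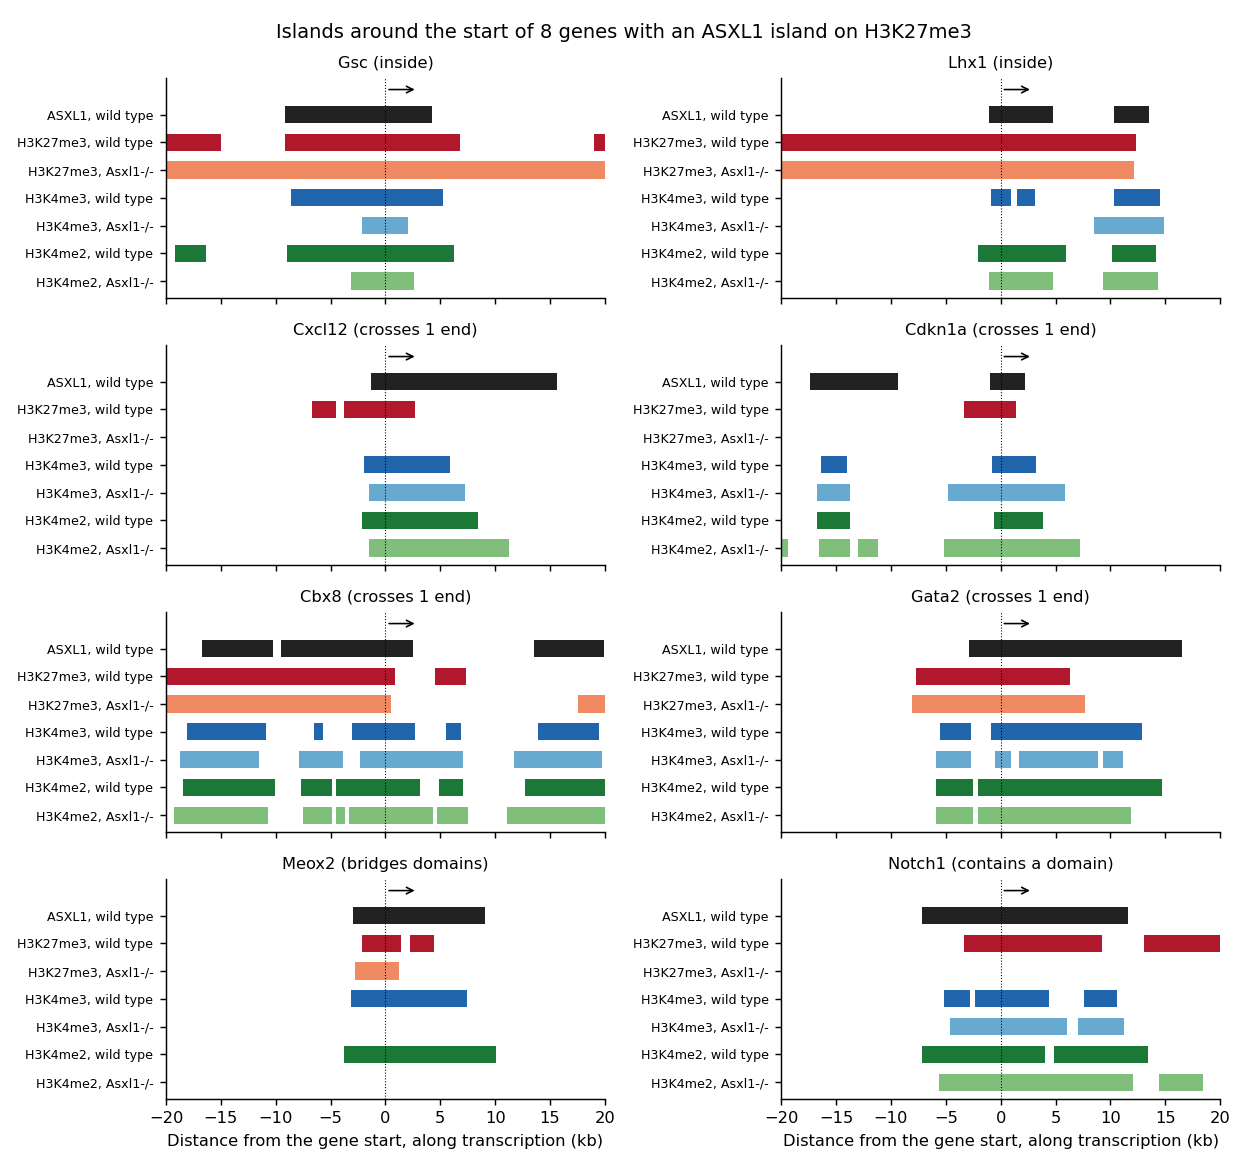
Islands of the 7 lists (rows, bars drawn to scale) within 20 kb of the start of 8 genes, with distance from the start in kb along the direction of transcription (horizontal axis; the dotted line is the start and the arrow points downstream). Cxcl12, Cdkn1a and Notch1 have no H3K27me3 island of Asxl1-/- in the window, Lhx1 lacks the H3K4me3 islands at its start, and Meox2 lacks both H3K4 marks in Asxl1-/-.

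The few adhesion and stromal genes in the selected islands were mostly without H3K27me3 in Asxl1-/-, where 44.8% of all genes in these islands were, and most had H3K4me3 in both genotypes. Of 33 cadherins and protocadherins 6 were in the selected islands, beside 5.6% of all genes. Of these 6 genes, 5 had no H3K27me3 left: Pcdh7 (7.8 kb in wild type), Cdh11 (5 kb), Fat4 on chromosome 3 (4 kb), Pcdh1 (3 kb) and Cdh2 (2.8 kb). H3K4me3 was equally long in both genotypes at Pcdh7 (7.8 kb), Pcdh1 (3 kb) and Cdh2 (2.8 kb). Of the 24 stromal and niche genes 4 were in the selected islands, beside the same 5.6% of all genes, and 3 were emptied. Cxcl12, the chemokine that holds blood stem cells in the marrow, was in an island of 17 kb (chr6:117167201-117184200) that crossed the end of a 6.4 kb domain. There H3K27me3 covered 4 kb in wild type and none in Asxl1-/-, H3K4me3 7.2 and 8.6 kb, and H3K4me2 9.8 and 12.6 kb. Alcam on chromosome 16, a cell adhesion molecule of the immunoglobulin family, had 3.6 kb and none, with 3.6 kb of both H3K4 marks in each genotype. With axon guidance genes added, 16 of 85 adhesion and guidance genes were in the selected islands and 10 (62.5%) were emptied. Robo2, a Slit receptor on chromosome 16, was among them, with 5 kb and none. Robo2 had H3K4me3 over 4.4 kb in wild type and none in Asxl1-/-. On chromosome 16, 28 of the 48 selected islands were emptied. The counts of genes are small, and the domains of this group were narrow (median 7.2 kb). Of all domains of 5 to 10 kb with a selected island 50.6% were gone, a share that counts whole domains and not shared stretches.

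Among 22 adipocyte genes 5 were in the selected islands, beside 5.6% of all genes. Cebpa, a master regulator of fat cells, and Lpl, a lipase, had 3.2 and 3.6 kb of H3K27me3 in wild type and none in Asxl1-/-, while Klf15, Zfp423 and Prdm16 kept all. H3K4me3 at Cebpa was 3.2 kb in both genotypes. Of 31 osteoblast and cartilage genes 1 was in the selected islands (3.23%, 0.08 to 16.7), an interval that covers the 5.6% of all genes. This was Tnfsf11, which encodes the osteoclast factor RANKL, and it kept all 2.8 kb. The cell cycle inhibitor Cdkn1a, in an island of 3.2 kb across the end of a 4.8 kb domain, had 2.4 kb and none, with H3K4me3 over 3 and 3.2 kb.

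Some genes of the Polycomb system were themselves in these islands, mostly at the ends of domains. Of 37 Polycomb and chromatin regulators 7 were, beside 5.6% of all genes, with 6 across 1 end and 1 around a domain. Cbx8, a chromodomain subunit of Polycomb repressive complex 1, had 10.4 kb of H3K27me3 in wild type and 10 kb of it in Asxl1-/-, with H3K4me3 over 6.4 and 8.8 kb. Pcgf1, a ring finger subunit of variant complexes, kept 11.2 of 13 kb in an island shared with Tlx2 and Dqx1, and Phf19, a PRC2 cofactor, kept 5.2 of 6 kb. Pcgf5 had 4 kb and none. Bmi1 and the H3K27 demethylase gene Kdm6b, on shared stretches of 2200 and 1600 bp, were emptied too. H3K27me3 was thus gone at 3 of the 7 (42.9%), near the 44.8% over all genes in the selected islands. Of 25 blood cell genes Tal1 and Gfi1 (8%, 0.98 to 26.0) were in the selected islands, near the 5.6% of all genes. Both lay inside domains and kept H3K27me3 whole. Of 16 endothelial genes Egfl7, Erg (on chromosome 16) and Kdr were in the selected islands (18.8%, 4.05 to 45.6), an interval that covers the 5.6% of all genes. H3K27me3 was kept whole at Egfl7 and Kdr and in part at Erg. H3K4me3 was 1.2 kb at Tal1 and 2.2 kb at Erg in wild type and absent from both in Asxl1-/-.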

How the data were processed

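The 7 island lists were deposited by the authors as chromosome, start and end with a running number and a library name; these values hold no count, score or p-value, so no depth is given. The submitters' processing notes name BWA, SICER 1.1 and the mm10 build, without parameters; the control, the false discovery limit and the BWA version were not given in those sources. The input library was not used here. Starts and ends lay on a 200 bp grid.

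Islands on the 19 autosomes were compared as intervals with Python 3.11.15, numpy 2.4.6, pandas 2.3.3 and scipy 1.17.1, and bedtools 2.31.1 gave the same 1529 selected islands. A mark counted as present with 1 window of overlap. Position classes and emptied stretches were tested on simulated lists with known answers. Gene starts came from RefSeq (GRCm38.p6, the coordinates of mm10): 16456 genes had a listed start, often several, and 4205 were taken by both gene ends. Exons and untranslated regions were not assigned. Genes named are, per position class, the 6 islands with the longest shared stretch that hold a gene start or end, the 8 longest with H3K27me3 emptied, H3K4me3 lost or gained, and up to 5 per gene list; clone names were passed over, and other members of a list that a sentence counts were named after their values were seen. The islands and the gene lists were chosen with earlier results of these data known, so counts over them are a description. Alternatives covered overlap, width, joining, list length and chromosomes. The check against blood cell markers is not reported here.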

Additional observations from a re-analysis of the deposited data

How the results depend on the processing

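Of 66 recomputed values, 47 stayed within the interval of the reported one (or within 1.5 times, for counts), 17 moved and 2 changed sign. Without width limit there were 1574 selected islands. With ASXL1 islands under 10000 bp, 48.0% crossed 1 end and 46.2% lay inside a domain, and with domains joined across gaps of 2000 and 5000 bp 44.5% and 47.3% lay inside. Within 1000 and 4000 bp of an edge lay 33.1% and 67.2% of interior islands, by construction of the limit. With under 50% of the stretch left counted as lost, 50.6% lost H3K27me3. The difference in H3K27me3 windows kept (selected islands minus outside, in percentage points) was -14.7 without width limit, -12.6 on the 10 autosomes with an even H3K4me2 ratio, -12.9 with islands joined across 5000 bp, -13.8 without chromosomes 3 and 13 and -1.42 measured from Asxl1-/- domains. From those domains the difference at domain ends turned from -12.9 to 1.65; the cause was not tested. H3K4me3 was lost at 10.7% with at least 50% of the island covered and at 17.2% with lists cut to equal length, where the narrowest islands of Asxl1-/- drop out; its difference from other ASXL1 islands was then 1.02 and -1.76 points, against -6.12. H3K4me2 was lost at 10.8% with at least 50% covered, and its difference from other ASXL1 islands was -4.66 points with equal lists, against -6.32. With lists cut to equal length, the H3K27me3 share kept stayed within its interval for 111 of 112 named genes, some of which share an island. Alternatives without chromosomes 3 and 13, from Asxl1-/- domains and with listed starts only were chosen after seeing the data. No paired analysis was possible because each target and genotype has 1 library. Without read counts, weak islands near the caller's limit cannot be told from lost ones.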

Other observations

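Where an ASXL1 island crossed the end of a domain, the direction of its gene made little difference to H3K27me3 in Asxl1-/-. None was left at 34 of 65 islands (52.3%, 39.5 to 64.9) whose gene was transcribed into the domain and at 207 of 359 (57.7%, 52.4 to 62.8) whose gene was transcribed out of it. It was gone at 143 of 266 (53.8%, 47.6 to 59.9) with the start inside the domain and at 98 of 158 (62.03%, 54.0 to 69.6) with the start outside. The intervals overlapped in both comparisons.

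Some long emptied stretches held genes outside the lists. Mc1r, the melanocortin receptor, and the tubulin gene Tubb3 shared an island of 15 kb that crossed the end of an 11.8 kb domain, with 9.8 kb of H3K27me3 in wild type and none in Asxl1-/-. Cyp1b1, a cytochrome P450 gene, had 8.4 kb and none, with H3K4me3 over 6.6 and 6.8 kb, and Itpkb, an inositol kinase gene 3.8 kb inside a 22 kb domain, had 7.8 kb and none. Kcne4, which encodes a potassium channel subunit, lost both marks: 7.8 kb of H3K27me3 and 3 kb of H3K4me3 in wild type had no counterpart in Asxl1-/-.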
